A study of Mus musculus with 17 samples.

Results

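The genes described here encode proteins that platelets store in their alpha granules, or that are needed to fill those granules. They are Pf4, Ppbp, Vwf, Thbs1, Mmrn1, F5, Pdgfb, Selp, Srgn and Nbeal2. They were chosen by gene symbol in the table that holds the libraries with the Arid3a transgene, and all 10 symbols were found among its 47069 genes. Alpha granules are built in megakaryocytes, the bone marrow and fetal liver cells that shed platelets, and are released when a platelet is activated. Their content includes chemokines, adhesive proteins, clotting factors and growth factors, some made by the megakaryocyte and some taken up from plasma. Transcription of many megakaryocyte genes depends on GATA1 together with factors of the ETS and RUNX families.

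RNA sequencing gave counts of reads per gene for 17 libraries of mouse fetal liver cells. The embryos were at E12.5 to E13.5 and of a Fezh/J knock-in strain, in which the CAG promoter drives the nuclease Cas9 and the fluorescent protein EGFP from the Gt(ROSA)26Sor locus. A guide RNA against Gata1 (sgGata1) was carried by every group except WT, and the study names such cells Gata1s, after the short form of GATA1 found in the leukemia of children with Down syndrome. With this guide, the LUC group (a luciferase control, n = 3) and the Arid3a group (an Arid3a transgene, n = 3) had doxycycline at 1 µg/mL for 48 h. Also with this guide, the sh-ctrl group (a control hairpin, n = 3), the shArid3a group (a hairpin against Arid3a, n = 2) and the miR-125b group (the microRNA miR-125b, n = 3) had doxycycline at 1 µg/mL for 10 days. WT cells (n = 3) carried a guide and a hairpin against luciferase, sgLuc and shLuc, and had no doxycycline. The shArid3a libraries are numbered 1 and 3, and one numbered 2 was not analysed here. The study asked how miR-125b and its target Arid3a, a transcription factor of megakaryocytes, act in cells with short GATA1. Nothing in the labels says whether libraries of a group came from separate embryos or cultures, so p-values measure the spread between these libraries, which may be technical.

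Total counts ranged from 31339238 to 40859301 in the libraries with sgGata1 and from 16362439 to 19212193 in WT, and the 10 genes took between 0.0933% and 0.359% of them. Library 1 of the Arid3a group stood apart from the other two, and the fold changes and edgeR calls of that group are given with and without it. Per gene, the chi-square distance of its counts was 98.6 to library 2 and 64.4 to library 3, against 14.7 between libraries 2 and 3. Large distances were not limited to this group, with 61.92 to 88.25 within sh-ctrl and 75.27 within shArid3a. Library 1 of miR-125b also stood apart, at 71.78 from library 2 and 77.03 from library 3, against 29.39 between libraries 2 and 3. Arid3a itself was not called higher in the Arid3a group, at 65.4 ± 10.9 CPM (counts scaled to library size, SD, n = 3) against 61.7 ± 2.60 in LUC, with a log2 fold change of 0.08 (SE 0.12, adjusted p = 0.737). It was 53.1, 68.9 and 74.1 CPM in libraries 1 to 3, and 59.0 to 64.2 CPM in LUC, so that library 1 lay below LUC and the other two above it. Without library 1 the log2 fold change was 0.21 (SE 0.072, adjusted p = 0.0623), which was not called either. These libraries are therefore called the libraries labelled Arid3a. Arid3a was 21.9 ± 0.675 CPM (SD, n = 2) in shArid3a and 9.98 ± 1.73 (SD, n = 3) in miR-125b against 58.2 ± 7.59 (SD, n = 3) in sh-ctrl, with log2 fold changes of -1.43 (adjusted p = 0.0368) and -2.56 (adjusted p = 0.000282). The fall in shArid3a lost its call when library 1 or 3 of shArid3a, or library 2 or 3 of sh-ctrl, was left out, with adjusted p-values of 0.0683, 0.461, 0.109 and 0.171, and in the fit without genes that resemble ribosomal RNA (-1.44, adjusted p = 0.0524). Gata1 did not pass the test in any of the 4 comparisons, though without Arid3a library 1 it was called lower against LUC (-0.27, adjusted p = 0.0265), and with the replicate number as a block it was called lower in miR-125b (-0.47, adjusted p = 0.0460).

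Markers of megakaryocytes were present in every group: the summed level of a list of 20 was 1731 to 1774 CPM in WT and 2526 to 4675 CPM in the libraries with sgGata1. A list of 15 granulocyte and monocyte markers summed to 17763 to 23644 CPM in WT, with no marker at 0, and to 9.97 to 189 CPM in the libraries with sgGata1. A list of 15 macrophage markers summed to 344 to 427 CPM in WT and to 3.02 to 8.64 CPM in the others, where Marco and Vsig4 were at 0 in all 5 groups. Of 20 endothelial markers, Cdh5, Emcn, Cldn5 and Sox17 were at 0 in every library with sgGata1. Cldn5 was at 0 in WT as well. The list summed to 138 to 191 CPM in the libraries with sgGata1 and 334 to 355 CPM in WT. Much of the sum with sgGata1 was Pecam1, which is also in the list of granule membrane genes used below. Pecam1 was 136 ± 3.17 CPM in LUC (SD, n = 3), where the list summed to 142 to 147 CPM. It was 161 ± 6.57 CPM in the libraries labelled Arid3a (SD, n = 3), where the list summed to 162 to 191 CPM. With sgGata1 the sum thus cannot be read as a level of endothelium. In bulk RNA, fewer cells of a type and less of a transcript per cell cannot be told apart.

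To read the results, the sequence of the microRNA and its match in the cargo genes come first. The mature miR-125b-5p is given from RefSeq (GRCm38.p6) with its seed, bases 2 to 8, in capitals, and is the same from both of its genes, on chromosomes 9 and 16.

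miR-125b-5p: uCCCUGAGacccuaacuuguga

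A match to this seed followed by an A (an 8mer, CTCAGGGA) was searched for in the longest annotated 3′ UTR of each gene, in GENCODE M21 (GRCm38). Among the 10 genes, Nbeal2 held one, and the other 9 held neither this 8mer nor the 7mer CTCAGGG. The Nbeal2 match starts at base 99 of a UTR of 336 bases, at chr9:110625008-110625037 with its flanks, on the minus strand. Arid3a, the target named by the study, held 2 such 8mers and 6 matches in all, and both 8mers are shown for comparison. Capitals mark the match.

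Nbeal2: ccaccctccagCTCAGGGAttggtagatgg

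Arid3a, first: gcctcctgtgcCTCAGGGAtgacagtgctg

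Arid3a, second: tgggtaactggCTCAGGGAtatagcagcca

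Of the 11499 tested genes with an annotated 3′ UTR, 5.53% held the 8mer and 15.7% held the 8mer or the 7mer. A match is a description of the letters and was not tested as a site.

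Levels between genes were compared per length, in CPM per kilobase of the gene length that the WT table gives. Pf4 (platelet factor 4, a chemokine) had the highest level of the 10 in all 6 groups, from 483 ± 130 CPM per kilobase (SD, n = 3) in WT to 2666 ± 659 (SD, n = 3) in miR-125b and 2950 ± 267 (SD, n = 2) in shArid3a. Srgn, the core protein of the proteoglycan serglycin that retains chemokines in granules, was second in the 5 groups with sgGata1. In WT, Thbs1 at 254 ± 71.0 and Srgn at 245 ± 19.0 CPM per kilobase (SD, n = 3) overlapped. Selp was lowest in WT, at 1.33 ± 0.349 CPM per kilobase, and F5 was lowest in LUC, at 0.0161 ± 0.0143 (SD, n = 3). Levels of one gene across groups are given below in CPM, scaled by the TMM method over all 17 libraries. No test was made between WT and the other groups, where genotype, doxycycline, second transgene and table change together.

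**Figure D1:**
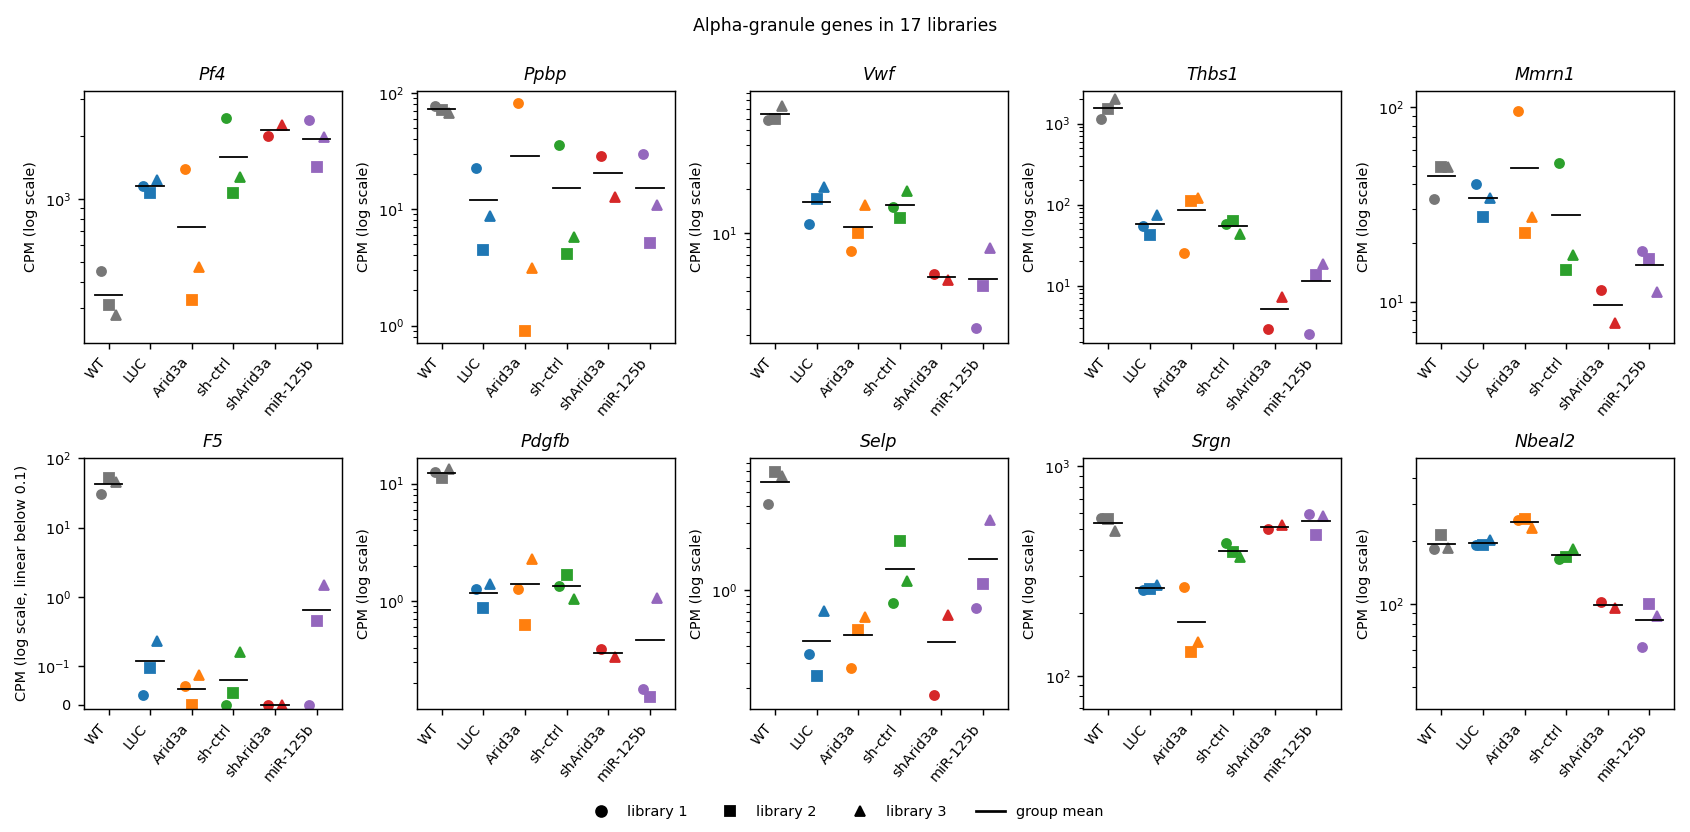
Level of each of the 10 genes in each library, in CPM on a log axis (for F5, linear below 0.1), by group. Symbols mark the library number and bars the group mean; Thbs1, F5, Pdgfb, Vwf and Selp had their highest group mean in WT, with no overlap with any other group, and Pf4 had its lowest group mean there.

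Among the groups, 5 genes were set apart in WT, each above every library with sgGata1. The share of all genes set apart in this way was not computed, so this count cannot be read as a trait of the cargo genes. Thbs1 (thrombospondin 1, an adhesive glycoprotein) was 1136, 1502 and 1995 CPM in the WT libraries and 2.50 to 120 CPM in the others. F5 (coagulation factor V) was 30.0, 51.0 and 45.4 CPM in WT and at most 1.48 CPM elsewhere. Pdgfb (the B chain of platelet-derived growth factor) was 12.51, 11.1 and 13.2 CPM in WT and at most 2.27 CPM elsewhere. Vwf (von Willebrand factor, which tethers platelets to damaged vessel walls) and Selp (P-selectin, a granule membrane receptor that reaches the surface on activation) were lower in every library with sgGata1 than in any of WT. Vwf was 59.2, 60.0 and 73.5 CPM in WT and at most 20.6 CPM elsewhere. Selp was 4.12, 6.99 and 6.504 CPM in WT and at most 3.18 CPM elsewhere. Pf4 went the other way on average, with 455, 313 and 278 CPM in WT against a lowest value of 328 CPM among the other libraries, so that the ranges overlapped. All 5 are also made by other cells, such as endothelium, macrophages or, for F5, hepatocytes. The myeloid lists given above were higher in WT as well, while 12 hepatocyte markers summed to 2.95 to 6.12 CPM there, with Alb at 0. The part of other cells in these levels was not tested.

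The neighbouring chemokine genes Ppbp and Pf4 lie on chromosome 5, on the plus strand, at positions 90768518 to 90770063 and 90772435 to 90773383 (GRCm38). They are 2371 bases apart with no annotated gene between them. Their promoters are shown because both genes varied between libraries of a group, as described below. Each window runs from 250 bases before to 50 bases after the RefSeq start (GRCm38.p6). Both strands were searched for GATA motifs (the words AGATAA or AGATAG, as well as the words TGATAA or TGATAG) and for ETS motifs (either of the words CCGGAA or CAGGAA), and capitals mark a match. The Pf4 window is chr5:90772185-90772484 and the Ppbp window is chr5:90768268-90768567.

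Pf4: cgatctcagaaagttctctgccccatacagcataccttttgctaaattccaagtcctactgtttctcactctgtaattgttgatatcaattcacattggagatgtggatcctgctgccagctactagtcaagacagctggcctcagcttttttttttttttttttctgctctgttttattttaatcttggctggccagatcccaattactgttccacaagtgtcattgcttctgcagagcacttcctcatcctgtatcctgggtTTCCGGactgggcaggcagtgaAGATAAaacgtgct

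Ppbp: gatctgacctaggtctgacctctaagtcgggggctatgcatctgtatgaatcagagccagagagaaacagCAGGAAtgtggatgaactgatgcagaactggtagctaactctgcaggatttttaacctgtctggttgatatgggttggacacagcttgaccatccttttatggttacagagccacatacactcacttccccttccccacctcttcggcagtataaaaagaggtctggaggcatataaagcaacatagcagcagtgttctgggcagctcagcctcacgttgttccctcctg

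The Pf4 window held a GATA match starting 36 bases after the start and an ETS match, on the opposite strand, 14 bases after it. The Ppbp window held an ETS match 180 bases before the start and no GATA match. RefSeq windows were found for 7 of the 10 genes. Besides Pf4, Mmrn1 held both motif classes, with TGATAA 34 bases before its start, and Srgn held ETS matches, while F5, Selp and Nbeal2 held neither. Of all 32851 promoters of this length, 29.8% held a GATA match, 41.4% an ETS match and 11.4% both.

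The level of Ppbp went with the library number in the labels. Ppbp (pro-platelet basic protein, the precursor of several chemokines) was highest in library 1 in each of the 5 groups with sgGata1. Those 5 libraries held 22.8 to 82.0 CPM, and the 9 libraries numbered 2 or 3 held 0.899 to 12.8 CPM, so that the ranges did not overlap. In the libraries labelled Arid3a, Ppbp was 82.0, 0.899 and 3.15 CPM, and in sh-ctrl it was 35.4, 4.14 and 5.72 CPM. Mmrn1 (multimerin 1, a large glycoprotein that binds factor V in the granule) was also highest in library 1 in all 5 groups, at 11.4 to 95.8 CPM against 7.76 to 34.1 CPM in the others, with overlap. Pf4 was highest in library 1 in 3 of the 5 groups. Thbs1 was highest in library 1 in 0 of the 5 and lowest there in 3. The share of all genes that are highest in library 1 in these groups, or that do not overlap in this way, was not computed. The pattern thus cannot be read as a trait of Ppbp, Mmrn1 or the cargo genes. What the numbers stand for is not given in the labels, and a cause of this pattern was not tested.

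**Figure D2:**
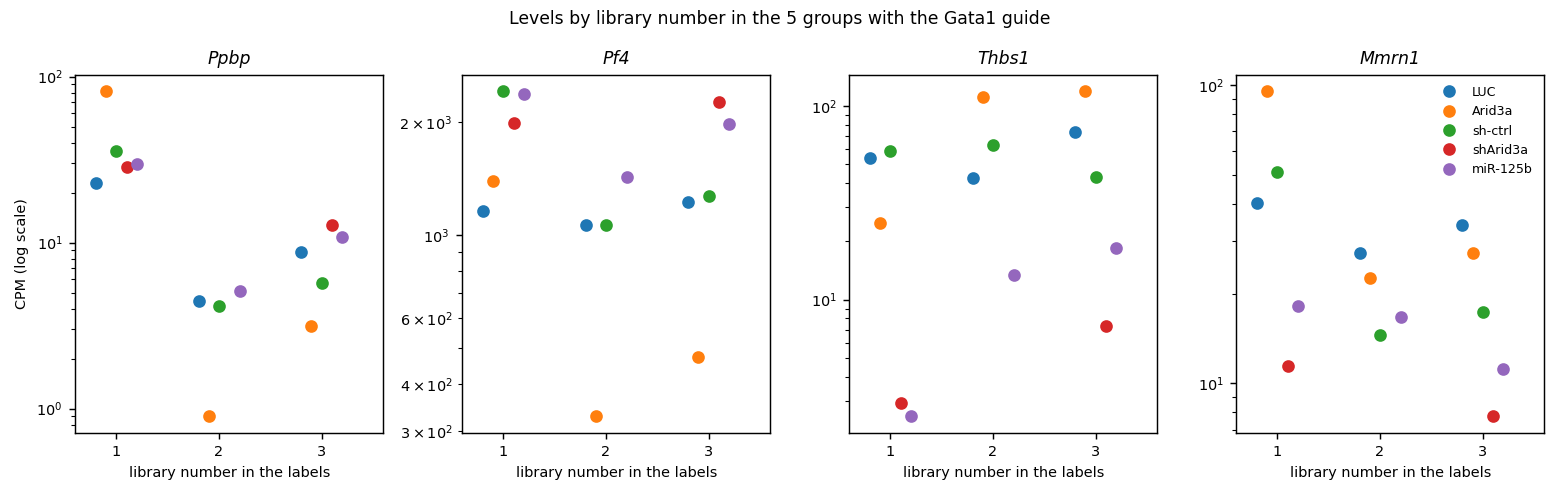
Levels of Ppbp, Pf4, Thbs1 and Mmrn1 in CPM on log axes, by library number in the labels, in the 5 groups with sgGata1; each point is 1 library and the colour gives the group. All libraries numbered 1 lie above 22 CPM for Ppbp and all others below 13 CPM.

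In the libraries labelled Arid3a against LUC, none of the 10 genes was called at an adjusted p-value under 0.05 by the quasi-likelihood test of edgeR. F5, at 0 to 8 counts per library, did not pass the filter on low counts, which left 9 tested. Over all 13495 genes the share called was also 0%, while 2885 genes (21.4%) and 1 of the 9 had an unadjusted p under 0.05. That gene was Nbeal2, a large BEACH domain protein whose loss leaves platelets without alpha granule content. Nbeal2 was 251, 253 and 231 CPM in the libraries labelled Arid3a and 190, 192 and 201 CPM in LUC. These ranges did not overlap, as for 12.8% of all genes in this direction. Its log2 fold change was 0.33 (SE 0.07, adjusted p = 0.0889). DESeq2, which called 10.1% of genes, called Nbeal2 alone among the 9 (adjusted p = 0.000688), but it gave Pdgfb and Selp no adjusted p, so these could not be called. The median log2 fold change of the 9 genes was 0.23 against 0.01 over all genes tested, and it turned to -0.36 without Arid3a library 1 and to -0.13 without Arid3a library 3.

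Without library 1 of the libraries labelled Arid3a, 5 of the 9 genes were called, against 23.2% of the 13789 genes then tested (12.7% higher and 10.5% lower). Library 1 was singled out because it stood apart in these same data. Leaving it out narrows the spread, so p-values without it may be too small. With any other single library left out, 0 genes were called. Pf4 was 1390, 328 and 472 CPM in the libraries labelled Arid3a and 1156, 1062 and 1225 CPM in LUC. Library 1 lay above every LUC library and the other two lay below them all. The log2 fold change of Pf4 was -0.65 (SE 0.49, adjusted p = 0.483) with library 1 and -1.52 (SE 0.13, adjusted p = 0.000436) without it. Srgn was 266, 130 and 145 CPM against 257, 260 and 270 CPM, and its log2 fold change went from -0.54 (adjusted p = 0.279) to -0.94 (adjusted p = 0.000297). For Srgn, library 1 lay within the LUC range and the other two below it. Ppbp changed direction, from 1.27 (adjusted p = 0.638) to -2.56 (adjusted p = 0.0256), with LUC at 22.8, 4.47 and 8.81 CPM.

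Thbs1 was 25.0, 111 and 120 CPM in the libraries labelled Arid3a and 54.1, 42.6 and 74.0 CPM in LUC, so that library 1 lay below LUC and the other two above it. Its log2 fold change was 0.58 (adjusted p = 0.556) with library 1 and 1.03 (SE 0.18, adjusted p = 0.00358) without it. Nbeal2 gave 0.32 (adjusted p = 0.00792) without library 1. Mmrn1 was 95.8, 22.6 and 27.3 CPM against 40.3, 27.3 and 34.1 CPM, and its log2 fold change turned from 0.52 (adjusted p = 0.601) to -0.44 (adjusted p = 0.0651). Vwf, at 7.51, 9.95 and 15.5 CPM against 11.5, 16.95 and 20.6 CPM, had -0.58 (SE 0.30, adjusted p = 0.320) with library 1 and -0.36 (SE 0.25, adjusted p = 0.329) without it. Pdgfb and Selp stayed at or under 2.27 CPM in both groups and were not called either way. Pdgfb had 0.23 (SE 0.49) with library 1 and 0.30 (SE 0.52) without it, and Selp had 0.15 (SE 0.55) and 0.43 (SE 0.59). Mast cell and basophil markers, a list of 14, summed to 318 to 745 CPM in the libraries labelled Arid3a and 568 to 693 CPM in LUC. The 20 megakaryocyte markers summed to 4154 to 4675 CPM against 3109 to 3454 CPM, and 0 of 18 tested were called with library 1 and 3 higher and 3 lower without it. The part of these lists in the results was not tested.

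**Figure D3:**
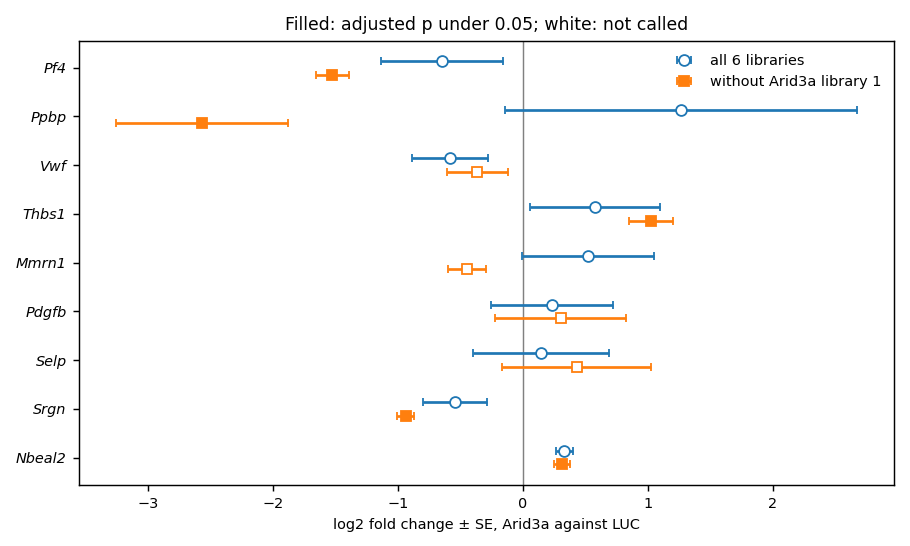
Log2 fold change and its standard error for 9 genes in the libraries labelled Arid3a against LUC, with all 6 libraries (circles) and without Arid3a library 1 (squares); filled symbols were called at an adjusted p under 0.05. None was called with all libraries and Pf4, Ppbp, Srgn, Thbs1 and Nbeal2 were called without library 1, which was singled out from these same data.

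In shArid3a against sh-ctrl, 6 of the 10 genes were lower in both shArid3a libraries than in all 3 sh-ctrl libraries: Vwf, Thbs1, Mmrn1, Pdgfb, Selp and Nbeal2. The 2 groups did not overlap in that direction for 21.6% of the 14004 genes tested. Srgn was the 1 gene higher without overlap, as were 22.3% of all genes. None of the 10 was called by edgeR, where the share over all genes was 0.0857% (12 genes), while 5 of the 10 and 25.8% of all genes had an unadjusted p under 0.05. The median log2 fold change of the 10 was -1.60, or -1.55 without F5 and -1.18 with F5 at the bound set by a floor of 3 counts, against -0.02 over all genes.

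Thbs1 differed most among the genes with counts in both groups. It was 2.92 and 7.33 CPM in shArid3a and 58.4, 63.4 and 42.8 CPM in sh-ctrl, with a log2 fold change of -3.45 (SE 0.72, adjusted p = 0.0989). Between libraries with the same number, shArid3a held 4.999% of the sh-ctrl level in library 1 and 17.1% in library 3. Whether numbers pair these libraries is not settled. Vwf was 5.24 and 4.76 CPM against 14.9, 12.6 and 19.2 CPM, with a log2 fold change of -1.65 (SE 0.46, adjusted p = 0.101). Mmrn1 was 11.4 and 7.76 CPM against 51.4, 14.5 and 17.3 CPM (-1.55, SE 0.51, adjusted p = 0.120). In sh-ctrl, library 1 lay far above the other two, which still lay above shArid3a, and without it the log2 fold change of Mmrn1 was -0.76 (SE 0.32, adjusted p = 0.196). Nbeal2 was 102 and 95.3 CPM against 163, 168 and 183 CPM, with a log2 fold change of -0.81 (SE 0.19, adjusted p = 0.0989).

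Of the cargo at low levels, Pdgfb was 0.387 and 0.333 CPM in shArid3a against 1.33, 1.67 and 1.03 CPM in sh-ctrl (log2 fold change -1.90, SE 0.87, adjusted p = 0.197). Selp was 0.179 and 0.666 CPM against 0.805, 2.24 and 1.17 CPM (-1.76, SE 0.83, adjusted p = 0.209). F5 had 0 counts in both shArid3a libraries and 0, 1 and 6 counts in sh-ctrl, where a difference was not detectable at this depth. The chemokines overlapped between the groups: Pf4 was 1991 and 2263 CPM against 2420, 1065 and 1268 CPM, and Ppbp was 28.4 and 12.8 CPM against 35.4, 4.14 and 5.72 CPM. Their log2 fold changes were 0.41 (adjusted p = 0.451) and 0.44 (adjusted p = 0.781). Srgn was 499 and 524 CPM against 431, 389 and 368 CPM (0.35, SE 0.15, adjusted p = 0.178).

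The calls in this comparison depended on the fit. DESeq2 called Vwf, Thbs1, Mmrn1 and Nbeal2 lower (adjusted p = 0.00467, 0.00272, 0.0135 and 0.00366), against 11.4% of all genes. The edgeR fit with no filter on low counts called the same 4 genes, against 5.70% of genes. A fit to the libraries of these 2 groups alone called Thbs1 (adjusted p = 0.0189), against 0.103%. Genes that resemble ribosomal RNA rose in the same libraries: 5 of 6 tested in a list of 10 were called higher by edgeR, against 0.05% of all genes. Lars2 was 976 ± 119 CPM (SD, n = 2) against 92.1 ± 14.2 (SD, n = 3). The list summed to 3361 to 3913 CPM in shArid3a, 2856 to 3781 CPM in miR-125b and 379 to 722 CPM in sh-ctrl, and its part in the differences of the cargo genes was not tested. The megakaryocyte markers lay lower in the same libraries, with a summed level of 2915 to 3202 CPM in shArid3a and 3924 to 4353 CPM in sh-ctrl and with Cmtm5 and P2ry12 at 0 in both groups. Of 18 tested, 15 had a log2 fold change below 0 (median -0.53) and 0 were called. Among them Itgb3, Gp6 and Itga2b were lower without overlap, at -1.41, -1.82 and -0.81 (adjusted p = 0.0989, 0.101 and 0.102), and the part of the list in these differences was not tested.

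In miR-125b against sh-ctrl, Nbeal2, Vwf and Thbs1 fell and Srgn rose, and the other 6 genes were not called. These 4 of 10 stand beside 24.4% of the 14004 genes tested, 12.1% called higher and 12.2% called lower, and 39.8% with an unadjusted p under 0.05. The share of the 10 was thus above that of all genes. The list is too short to read more from it, and it was chosen with earlier results of these data known. The median log2 fold change was -0.44 for the 10 and -0.87 without F5, against -0.03 over all genes.

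Nbeal2, the gene with the seed match, was 62.1, 100 and 87.5 CPM with miR-125b and 163, 168 and 183 CPM in sh-ctrl. Every miR-125b library lay below every sh-ctrl library, as for 22.3% of all genes in this direction. Nbeal2 stood at 38.1%, 59.7% and 47.8% of the sh-ctrl library with the same number, though whether numbers pair these libraries is not settled. The log2 fold change was -1.05 (SE 0.17, adjusted p = 0.00616), and Nbeal2 was called in all 13 alternative fits. Vwf was 2.25, 4.34 and 7.89 CPM against 14.9, 12.6 and 19.2 CPM, again without overlap, with a log2 fold change of -1.70 (SE 0.40, adjusted p = 0.0171). Thbs1 was 2.50, 13.4 and 18.5 CPM against 58.4, 63.4 and 42.8 CPM, with a log2 fold change of -2.27 (SE 0.57, adjusted p = 0.0208). Set against the sh-ctrl library with the same number, Thbs1 stood at 4.27% in library 1 and at 21.1% and 43.2% in libraries 2 and 3. Without library 3 of sh-ctrl, which left 5.30% of all genes called, the calls of Vwf (adjusted p = 0.0680) and Thbs1 (adjusted p = 0.0533) were lost and that of Nbeal2 stayed (1 of the 10).

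Srgn was 589, 472 and 580 CPM with miR-125b and 431, 389 and 368 CPM in sh-ctrl, without overlap, as for 22.9% of all genes in this direction. The log2 fold change of Srgn was 0.45 (SE 0.14, adjusted p = 0.0380). Its call was lost with the replicate number as a block (adjusted p = 0.0544, a fit in which 26.3% of all genes and Vwf, Thbs1 and Nbeal2 were called). It was also lost without each of libraries 1 and 3 of miR-125b and each of the 3 sh-ctrl libraries (adjusted p = 0.0523 to 0.142), with no filter on low counts (adjusted p = 0.0520), and under scaling by library totals (0.26, adjusted p = 0.122). That scaling lowered the median of all genes by 0.19 on the log2 scale, so that the 0.26 lies above a lowered median, and with it 26.6% of called genes lay higher, against 49.8% before.

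The remaining cargo overlapped between miR-125b and sh-ctrl. Pf4 was 2367, 1421 and 1979 CPM against 2420, 1065 and 1268 CPM, and Ppbp was 29.9, 5.13 and 10.8 CPM against 35.4, 4.14 and 5.72 CPM. Mmrn1 was 18.3, 16.7 and 11.2 CPM against 51.4, 14.5 and 17.3 CPM, with a log2 fold change of -0.87 (SE 0.44, adjusted p = 0.162). Without sh-ctrl library 1 it was -0.08 (SE 0.28, adjusted p = 0.866). With no filter on low counts, a fit that called 18.4% of genes, 5 of the 10 were called: Nbeal2, Vwf and Thbs1 as before, Mmrn1 lower (-0.87, adjusted p = 0.0218) and F5 higher (3.19, adjusted p = 0.0380). In Pdgfb, libraries 1 and 2 at 0.178 and 0.152 CPM lay below sh-ctrl, and library 3 at 1.06 CPM lay within its range. Without that library the log2 fold change of Pdgfb went from -1.52 (adjusted p = 0.147) to -3.02 (adjusted p = 0.0259), in a fit that called 2032 of 13913 genes. Libraries 1 and 2 held only 5 counts of Pdgfb each, near the floor of 3 counts. Library 3 was singled out here from these same data, so this p-value may be too small. Selp was 0.749, 1.09 and 3.18 CPM with miR-125b, and F5 had 0, 15 and 53 counts, with library 3 highest in both. The list of granulocyte and monocyte markers summed to 104 to 189 CPM with miR-125b and 68.0 to 114 CPM in sh-ctrl. Of its 7 tested members, 3 were called higher (42.9%, against 12.1% of all genes), with Mpo at 46.4 ± 20.8 CPM (SD, n = 3) against 0.217 ± 0.349 (SD, n = 3). Mast cell and basophil markers had 2 of 13 tested called higher (15.4%, against 12.1% of all genes). These were Prss34 at 24.5 ± 37.0 CPM and Mcpt8 at 17.2 ± 27.5 CPM with miR-125b (SD, n = 3), each with an SD above its mean. Erythroid markers had 2 of 12 called lower (16.7%, against 12.2% of all genes). Of 12 hepatocyte markers 2 were tested and both were called higher, against 12.1% of all genes. Afp was 4.15 ± 0.912 CPM against 0.723 ± 0.0989 (SD, n = 3 each; 2.50, adjusted p = 0.0141) and Apoa2 was 1.33 ± 0.223 CPM against 0.299 ± 0.0924 (2.12, adjusted p = 0.0214). That list summed to 4.50 to 6.58 CPM with miR-125b and 0.866 to 1.41 CPM in sh-ctrl, with Ttr, Ahsg and Hnf4a among the markers at 0 in both groups. The part of these cells in the levels of the cargo genes was not tested.

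**Figure D4:**
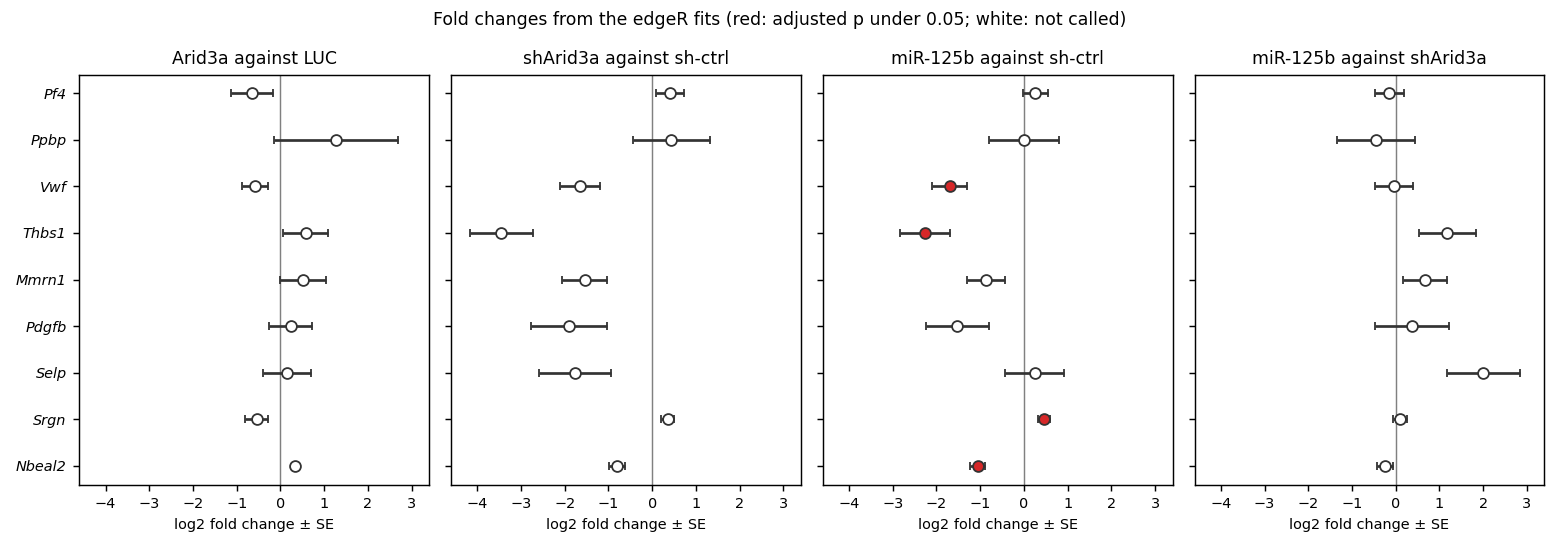
Log2 fold change with its standard error for 9 genes (F5, with few counts, is left out) in the 4 comparisons; red points were called at an adjusted p under 0.05 by edgeR. Called genes are Vwf, Thbs1, Nbeal2 (lower) and Srgn (higher) in miR-125b against sh-ctrl, and shArid3a and miR-125b share the sh-ctrl libraries.

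The shArid3a and miR-125b groups were also compared directly, since both share the sh-ctrl libraries. None of the 10 genes was called, against 1.35% of all genes, and 2 of the 10 against 14.5% of all genes had an unadjusted p under 0.05. DESeq2 also called none of the 10. Nbeal2 differed by -0.25 on the log2 scale (SE 0.19, adjusted p = 0.601), Vwf by -0.04 (SE 0.44) and Srgn by 0.10 (SE 0.15). Thbs1 was 1.18 higher with miR-125b (SE 0.65, adjusted p = 0.446). The 2 genes were Selp (2.01, SE 0.83, adjusted p = 0.301) and F5, at 0 counts in shArid3a. For Selp the groups did not overlap, as for 13.9% of all genes in this direction. With no filter on low counts, Thbs1 and F5 were called, against 3.30% of all genes. A p-value that misses the threshold does not show that the groups are alike.

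Other genes of the granule pathway were counted in lists of general knowledge, chosen with earlier results of these data known. Their counts with miR-125b against sh-ctrl stand beside 24.4% of all genes called, 12.1% higher and 12.2% lower. Of 30 other cargo genes, 15 were tested, and with miR-125b 4 (26.7%) were lower and 0 higher than in sh-ctrl, a share near that of all genes called in either direction. Vegfa (an angiogenic growth factor) was 22.1 ± 7.80 CPM against 126 ± 52.7 (SD, n = 3 each; log2 fold change -2.52, adjusted p = 0.00465). In shArid3a none of these 15 was called, at a median log2 fold change of -0.63 with 13 below 0. Of 10 tested granule membrane genes, 5 were called lower with miR-125b and 0 higher, among them Itgb3, the beta-3 integrin chain of the fibrinogen receptor, at 136 ± 54.2 CPM against 434 ± 11.1 (-1.68, adjusted p = 0.00605). In shArid3a Itgb3 was 165 ± 22.6 CPM (SD, n = 2; -1.41, adjusted p = 0.0989). Itgb3 is also in the list of megakaryocyte markers, of whose 18 tested genes 8 were lower and 1 higher with miR-125b.

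Of 21 genes of granule biogenesis and sorting, 2 (9.52%) were lower with miR-125b and 0 higher, below the 24.4% of all genes. Vps33b, a sorting protein whose loss, like that of Nbeal2, leaves platelets without alpha granules, was 45.5 ± 5.10 CPM against 76.3 ± 3.10 (SD, n = 3 each; log2 fold change -0.76, adjusted p = 0.00666). The adaptor Gga3 was 54.2 ± 3.41 CPM against 79.4 ± 11.96 (-0.56, adjusted p = 0.0231), a call lost in 4 alternative fits. Of 20 tested genes of granule exocytosis, 5 were lower and 2 higher (35.0% in all, against 24.4%). Snap23, a membrane fusion protein, had a log2 fold change of -0.67 (adjusted p = 0.0105), and Nsf, the ATPase that recycles such proteins, had 0.63 (adjusted p = 0.00784). Both differed in the same directions from shArid3a, by -0.77 (adjusted p = 0.0341) and 0.98 (adjusted p = 0.00953), where Snap23 lost its call in 5 alternative fits and Nsf in 2.

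Of 22 tested genes of dense granules, the smaller granules that hold serotonin and nucleotides, 4 were lower and 1 higher with miR-125b, or 22.7% against 24.4% of all genes. Slc35d3, a dense granule protein, was 11.05 ± 4.97 CPM against 60.8 ± 28.2 (SD, n = 3 each; log2 fold change -2.47, adjusted p = 0.00850). In shArid3a Slc35d3 was 10.8 ± 5.39 CPM (SD, n = 2; -2.49, adjusted p = 0.0989). Of 22 tested transcription factors of megakaryocytes, 3 were lower and 2 higher with miR-125b, again 22.7% against 24.4%. Mafk, a small MAF protein, had -0.83 (adjusted p = 0.00937) and Ets1 had 2.79 (adjusted p = 0.0142), at 4.07 ± 1.66 CPM against 0.578 ± 0.226 (SD, n = 3 each), a call lost without sh-ctrl library 3 (adjusted p = 0.0643). None of the genes of these 6 granule and factor lists was called by edgeR in shArid3a against sh-ctrl or in the libraries labelled Arid3a against LUC. At an unadjusted p under 0.05, which 25.8% and 21.4% of all genes had, the counts in these 2 comparisons were 2 and 2 of 15 for other cargo, 5 and 5 of 10 for granule membrane, and 5 and 6 of 21 for biogenesis. They were 7 and 5 of 20 for exocytosis, 6 and 4 of 22 for dense granules and 11 and 10 of 22 for transcription factors. By DESeq2, which called 11.4% and 10.1% of all genes, the numbers called in the 2 comparisons, in the same order of lists, were 1 and 1, 3 and 5, 1 and 4, 2 and 3, 3 and 2, and 5 and 6. Without Arid3a library 1, where edgeR called 23.2% of all genes, it called 5 of 15 for other cargo, 6 of 10 for granule membrane, 8 of 21 for biogenesis, 5 of 20 for exocytosis, 4 of 22 for dense granules and 10 of 22 for transcription factors.

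For each of the 10 genes, the gene with the most alike pattern was found among 8516 candidates, as the smallest root mean square difference of log2 CPM, each gene centred on its mean over the 17 libraries. Nbeal2 had the smallest difference, to Rgp1 at 0.13, followed by Srgn with Cyba at 0.23 and Pf4 with Card19 at 0.38. Mmrn1 was closest to Ssh3 (0.42) and Vwf to Irgm2 (0.44), and Pdgfb, Selp and Ppbp to Parp14 (0.63), Actn1 (0.67) and Gmfg (0.89). Thbs1 was closest to Lyst (1.03), a gene of the dense granule list, and F5 to the myeloid gene Lyz2 (1.23). Among the 10 themselves, Vwf and Pdgfb were the closest pair, at 0.66, and Pf4 was no closer than 1.03 to any other. These differences grow with how much a gene itself varies, so their order does not rank how well the patterns match. The root mean square of a gene's own centred log2 CPM was 0.58 for Nbeal2, 0.66 for Srgn and 1.04 for Pf4. It was 1.34 for Vwf, 1.74 for Pdgfb, 2.71 for Thbs1 and 3.36 for F5. Differences between tables enter these measures, since WT stands apart for several genes.

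By place, no other annotated gene overlaps Pf4, Ppbp, Vwf, Mmrn1 or Srgn in GENCODE M21. Vwf lies on chromosome 6 at 125546774 to 125686679 (plus strand) and Nbeal2 on chromosome 9 at 110624789 to 110654161 (minus strand), where 1 annotated microRNA gene lies within it on the same strand. Thbs1, on chromosome 2 at 118111876 to 118127133 (plus strand), overlaps 1 noncoding gene on the other strand. F5, Pdgfb and Selp each overlap 2 other annotated genes. The use of strand in the counting is not given in the sources used here, so reads of a gene and of its partner on the other strand cannot be told apart.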

How the data were processed

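The authors deposited 3 tables of raw read counts per gene, without normalization, 1 with LUC and Arid3a, 1 with sh-ctrl, miR-125b and shArid3a, and 1 with WT. The submitters' processing notes name fastp, HISAT2 2.0.5, featureCounts and the build mm10, while annotation and use of strand are not given in the sources used here. Tables were joined by Ensembl identifier (46880 genes in all of them). Groups came from the labels. Each table was fitted with edgeR 4.0.16 in R 4.3.3 (TMM scaling, filterByExpr, quasi-likelihood test, 1 term per group), with Benjamini-Hochberg adjustment over all genes tested and calls under 0.05. Standard errors were derived from F statistics. Levels are CPM with TMM over 17 libraries, and log2 CPM had a prior count of 2. Totals of 16362439 to 40859301 counts set the counting precision, and a floor of 3 counts per library, for counting error only, was used. The fits were tested on simulated counts. No 2 libraries of a group agreed within sampling noise.

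The 10 genes and all gene lists were chosen with earlier results of these data known. By rule, every one of the 10 is named, Arid3a and Gata1 are named, and of a list up to 3 genes with the smallest adjusted p. For miR-125b and sh-ctrl, deviations from group means correlated at 0.427, 0.151 and 0.294 between same-numbered libraries. Library 2 of miR-125b correlated best with library 3 of sh-ctrl, and library 3 of shArid3a with library 2 of sh-ctrl. A pairing of these groups by number is thus not settled by the data. Alternatives were DESeq2 1.42.0, library totals, other filters, fits without genes that resemble ribosomal RNA or of the compared groups alone, a replicate block, and each library left out.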

Additional observations from a re-analysis of the deposited data

How the results depend on the processing

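The number of the 10 genes called in the libraries labelled Arid3a against LUC was 1 with DESeq2 and ranged from 0 to 5 with 1 library left out; over all genes it was 1359 with DESeq2, 71 with no filter and 0 to 3198 with a library left out. In shArid3a against sh-ctrl it was 4 with DESeq2, 4 with no filter and 1 with the compared groups alone; over all genes it was 1600 with DESeq2, 1237 with no filter, 20 with library totals, 19 with a filter of 10 counts, 0 without genes that resemble ribosomal RNA, and 2 to 11 with a library left out. In miR-125b against sh-ctrl it was 1 to 4 of the 10, and 734 to 2872 of all genes, with a library left out. In miR-125b against shArid3a, 2 of the 10 were called with no filter; over all genes it was 737 with DESeq2, 715 with no filter and 12 to 329 with a library left out. The causes were not tested.

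The directions of Nbeal2, Vwf, Thbs1 and Srgn held in every alternative of the comparisons against sh-ctrl. Directions that turned with 1 library left out are given as ranges on the log2 scale. Against LUC they were -2.56 to 2.12 for Ppbp, -0.44 to 0.87 for Mmrn1, -0.31 to 0.58 for Pdgfb, -0.15 to 0.68 for Selp and -0.019 to 0.21 for Arid3a. The range of Ppbp was -0.27 to 2.04 in shArid3a and -0.93 to 1.61 in miR-125b, both against sh-ctrl, and Selp had -0.63 to 0.74 in the latter. In miR-125b against shArid3a they were -0.32 to 0.047 for Pf4, -1.37 to 0.27 for Ppbp, -0.60 to 0.30 for Vwf and -1.12 to 0.80 for Pdgfb. Ppbp also turned to -0.49 against LUC with the block, and in miR-125b against sh-ctrl to 0.021 (DESeq2), 0.0091 (no filter), 0.0022 (without genes that resemble ribosomal RNA) and 0.26 (block). Pf4 turned to 0.031 in miR-125b against shArid3a with the block.

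For the libraries labelled Arid3a and LUC, deviations of same-numbered libraries correlated at 0.158, 0.365 and 0.0084, which does not settle a pairing by number. The replicate block called 0 of all genes against LUC, 15 in shArid3a against sh-ctrl and 255 in miR-125b against shArid3a. Among the 10 genes it changed no call other than that of Srgn. Scaling by library totals lowered the median of all genes by 0.19 in both comparisons against sh-ctrl. Where shArid3a or another group had 1 library left, it was assumed to vary like the others.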
